A study of Caenorhabditis elegans with 6 samples.

Results

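The respiratory chain and ATP synthase are built from proteins of 2 genomes. The genes were taken by name and place: 44 nuclear genes whose symbol begins with nuo-, cox-, atp-, asb-, asg- or ucr- and a number, or is gas-1, mev-1, sdha-1, sdhb-1, sdhd-1, isp-1, clk-1, cyc-1 or cyc-2.1, and the 12 protein-coding genes of the mitochondrial genome. Together they are 56 of the 46911 gene identifiers counted. RNA came from whole Caenorhabditis elegans labelled L4, the last larval stage, raised at 20 °C on Escherichia coli OP50. The mutant strain carries nmr-2(ok3324), an allele of the gene for a subunit of the NMDA-type glutamate receptor, and was compared with N2, the wild type (WT). There were 3 libraries per genotype, and the labels name a single mutant strain. Whether each library is a culture of its own is not stated there, and the p-values rest on a spread among libraries that may be technical only.

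Complexes I and II pass electrons from NADH and succinate to ubiquinone, complex III passes them to cytochrome c, and complex IV passes them to oxygen. Complexes I, III and IV pump protons across the inner membrane, and complex V, the ATP synthase, uses the returning protons to make ATP. Nuclear subunits are made in the cytosol and imported, while mitochondrial mRNAs come from long transcripts of a circular genome and are translated inside the organelle, so that every complex other than complex II needs products of both genomes.

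Libraries held 21234748 to 27893186 counts, and 3 counts correspond to 0.108 to 0.141 CPM, a count scaled to a common library size. TMM scaling factors, which correct library sizes for composition, were highest for nmr-2(ok3324) replicate 2 at 1.2 and lowest for WT replicate 2 at 0.838, with the other 4 libraries at 0.987 to 1.01. Medians of gene groups are given with and without both of them. Ribosomal RNA genes took 6.67% to 8.56% of counts in nmr-2(ok3324) and 5.58% to 10.2% in WT. The nmr-2 gene itself had 3, 5 and 5 counts in nmr-2(ok3324) and 7, 2 and 10 in WT, and the count ratio of 0.697 (95% exact interval 0.316 to 1.49) does not check the genotype labels. In whole animals, fewer cells of a type and less RNA per cell cannot be told apart.

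Mitochondrial transcripts stood higher relative to the nuclear ones in the nmr-2(ok3324) libraries than in the WT libraries. The summed level of the 12 mitochondrial genes was 5919, 5880 and 6681 CPM in nmr-2(ok3324) replicates 1 to 3, against 4457, 5492 and 5387 CPM in WT replicates 1 to 3. All 3 mutant libraries lay above all 3 WT libraries, with means of 6160 ± 451 and 5112 ± 570 CPM (SD, n = 3 each). The summed level of the 44 nuclear genes was 14990, 11470 and 14860 CPM in nmr-2(ok3324), against 15890, 18900 and 14810 CPM in WT. Here the groups overlapped, because WT replicate 3 lay below 2 of the mutant libraries. The nuclear means were 13770 ± 1995 and 16530 ± 2119 CPM.

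The ratio of mitochondrial to nuclear counts inside a library does not depend on how libraries are scaled. It was 0.395, 0.513 and 0.450 in nmr-2(ok3324) and 0.281, 0.291 and 0.364 in WT. The lowest mutant library thus lay above the highest WT library, by less than the spread within either genotype. On the log2 scale the ratio averaged -1.15 ± 0.19 in nmr-2(ok3324) and -1.69 ± 0.20 in WT, a difference of 0.54 or 1.45-fold. The difference was 0.40 without both libraries numbered 2, and 0.42 when the mean log2 level per gene replaced the sums. As a score over chosen genes it is given as a description, with no test.

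**Figure D1:**
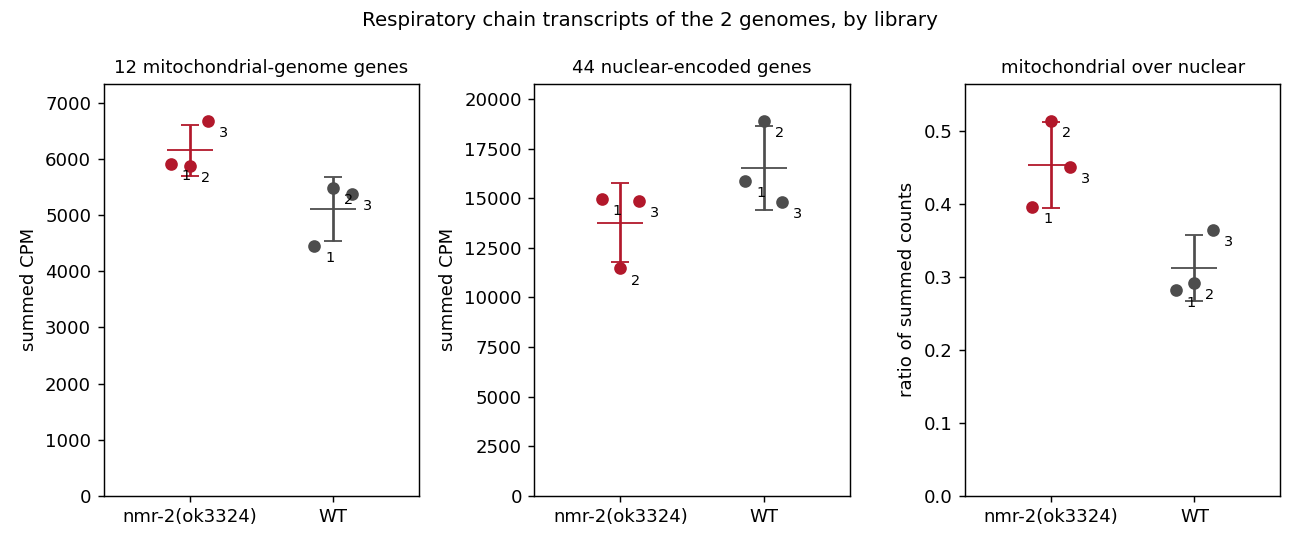
Summed CPM of the 12 mitochondrial and the 44 nuclear genes, and the ratio of their summed counts, for each library (points, numbered by replicate) with mean and SD for nmr-2(ok3324) on the left and WT on the right of each panel. The mitochondrial sum runs from 5880 to 6681 CPM in nmr-2(ok3324) and from 4457 to 5492 CPM in WT, while the nuclear sums overlap.

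The same separation appeared inside each complex that has subunits of both genomes. For complex I the mitochondrial to nuclear ratio was 0.779, 0.897 and 0.938 in nmr-2(ok3324), against 0.515, 0.651 and 0.693 in WT. For complex III it was 0.389, 0.546 and 0.451 in nmr-2(ok3324) and 0.302, 0.294 and 0.362 in WT. For complex IV, leaving out assembly factors, it was 1.51, 2.05 and 1.8 in nmr-2(ok3324) and 1.16, 1.11 and 1.48 in WT, so its 3 mitochondrial genes outweighed its 7 nuclear ones in every library. For complex V it was 0.05, 0.0647 and 0.0530 in nmr-2(ok3324) and 0.0353, 0.0375 and 0.0466 in WT. The mutant mean was 1.405-fold to 1.447-fold the WT mean in these 4 complexes, and the groups overlapped in none of them. The mitochondrial genes are few here, 1 each for complexes III and V, so these ratios share the levels of single transcripts.

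Per gene, counts were tested with edgeR's quasi-likelihood test over 13137 genes, with Benjamini-Hochberg adjustment and a threshold of 0.05. The low-count filter kept 11 of the 12 mitochondrial and 41 of the 44 nuclear genes. Of the 11 mitochondrial genes, 1 rose, 0 fell and 10 did not pass. Among all tested genes 1.8% rose and 0.373% fell. Log2 fold changes were above 0 for 9 of the 11 and below 0 for 2, where 46.6% of all tested genes lay below 0. Their median was 0.21, beside a median of 0.03 over all tested genes. The groups did not overlap for 7 of the 11, all with nmr-2(ok3324) above WT, as held for 13.4% of all tested genes. At an unadjusted p under 0.05 there were 4 of the 11 higher (10.3% of all genes) and 0 lower (6.91%).

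The one mitochondrial gene that rose was ND5, which encodes a proton-pumping subunit of the membrane arm of complex I. ND5 (WBGene00010967, positions 11691 to 13272 of the mitochondrial genome in WBcel235, plus strand) had 389, 379 and 427 CPM in nmr-2(ok3324) and 203, 291 and 284 CPM in WT. Every mutant library lay above every WT library, and WT replicate 1 was the lowest. The fold change on the log2 scale came to 0.62 (SE 0.14), with an edgeR adjusted p of 0.0358. The call was lost in 7 settings, among them without nmr-2(ok3324) replicate 1 (adjusted p = 0.0875), nmr-2(ok3324) replicate 3 (0.112), WT replicate 1 (0.216) or WT replicate 3 (0.0646), without both libraries numbered 2 (0.188) and with the size factors of DESeq2 in edgeR (RLE, 0.0699), where 1.59% of all genes rose. Over all 15 alternatives ND5 kept a log2 fold change of 0.47 to 0.80, with adjusted p from 0.0011 to 0.219, and was called in 8 of them.

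ND4, another proton-pumping subunit, had 243, 240 and 284 CPM in nmr-2(ok3324) and 165, 206 and 208 CPM in WT. These groups did not overlap either, though ND4 did not pass (log2 fold change 0.41, SE 0.13, edgeR adjusted p = 0.128). ND2, the third such subunit, had 128, 117 and 155 CPM in nmr-2(ok3324) and 93.6, 129 and 126 CPM in WT. ND1, which helps form the ubiquinone site, had 276, 260 and 320 CPM in nmr-2(ok3324) and 220, 268 and 267 CPM in WT. For ND1 and ND2 the groups overlapped, and the log2 fold changes were 0.18 and 0.20.

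Mitochondrial genes of the other complexes had smaller log2 fold changes than ND5 and ND4, and larger ones than ND1. CYTB, the cytochrome b of complex III, had 741, 828 and 849 CPM in nmr-2(ok3324) and 588, 684 and 666 CPM in WT (log2 fold change 0.32, SE 0.14, edgeR adjusted p = 0.273). COX1, which holds the oxygen-reducing centre of complex IV, had 2172, 2126 and 2456 CPM in nmr-2(ok3324) and 1638, 1988 and 1985 CPM in WT (0.27, SE 0.17). COX2, which takes electrons from cytochrome c, had 483, 498 and 548 CPM in nmr-2(ok3324) and 351, 432 and 447 CPM in WT (0.31, SE 0.14). For these 3 genes the mutant libraries lay above the WT libraries, and in each WT replicate 1 was lowest and nmr-2(ok3324) replicate 3 highest. COX3 (0.21, SE 0.15) and ATP6, the membrane subunit a of the ATP synthase (0.19, SE 0.13), showed the same order of libraries, at 993 ± 66 and 399 ± 20 CPM in nmr-2(ok3324) and 857 ± 80 and 349 ± 41 CPM in WT.

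WT replicate 1 was the lowest of the 6 libraries for 9 of the 11 mitochondrial genes, as for 14.3% of all tested genes. nmr-2(ok3324) replicate 3 was the highest for 9 of the 11, as for 11% of all. Without WT replicate 1 the median log2 fold change of the mitochondrial genes was 0.14, and without nmr-2(ok3324) replicate 3 it was 0.15. Without both libraries numbered 2 it was 0.34, and 5 of the 11 genes rose there (CYTB, COX1, COX3, ATP6 and ND4, with log2 fold changes of 0.28 to 0.49 and edgeR adjusted p of 0.0021 to 0.0292), where 2.61% of all genes rose. ND5 was not among these 5. That fit rests on 2 libraries per genotype, and 4.01% of all genes were called in it, against 2.17% with all 6 libraries. With library totals in place of TMM factors 5 rose as well, CYTB, COX1, COX2, ND4 and ND5, beside 1.37% of all genes. That scaling moved the median of all genes to 0.20 and of the mitochondrial genes to 0.39, which leaves 0.19 between them.

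**Figure D2:**
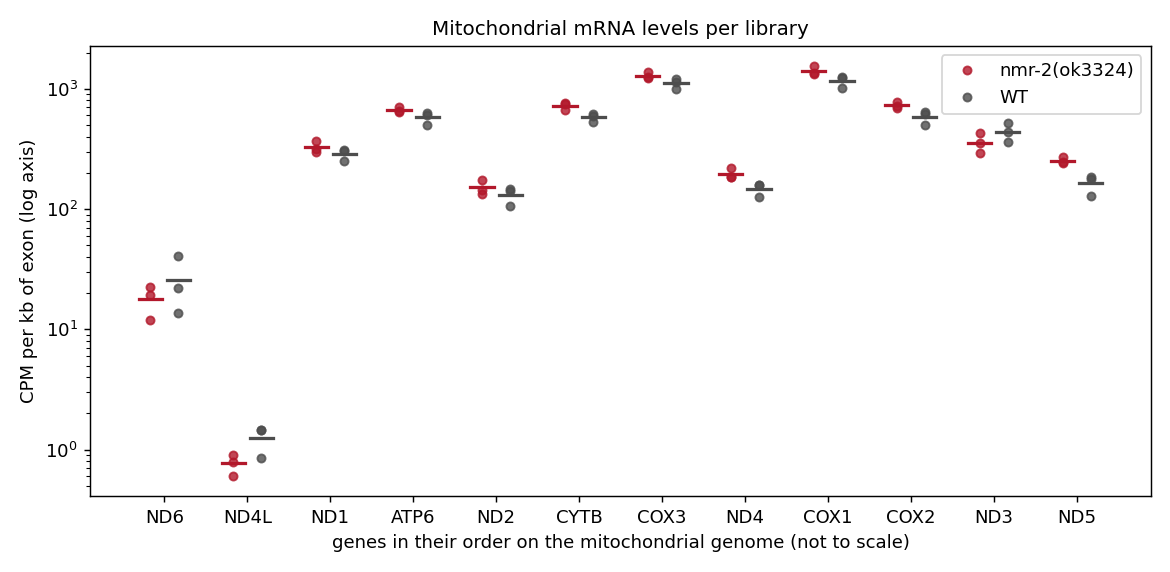
CPM per kb of exon on a log axis for the 12 mitochondrial genes in their genome order, with a point for each library and a line at the mean, nmr-2(ok3324) left of WT for each gene. Mean levels are lowest for ND4L and highest for COX1, at 1405 CPM per kb in nmr-2(ok3324) and 1168 in WT, and ND3 and ND6 are the tested genes whose nmr-2(ok3324) mean lies below the WT mean.

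Levels per length differed widely among genes that share long transcripts. COX1 had 1405 CPM per kb of exon in nmr-2(ok3324) and 1168 in WT, and COX3 1287 and 1111. ND6, a small membrane subunit of complex I encoded at the start of the annotated genome, had 17.95 CPM per kb in nmr-2(ok3324) and 25.51 in WT. ND4L, the shortest of the 12, held 6, 5 and 3 counts in nmr-2(ok3324) and 8, 7 and 5 in WT and was not tested. For these 14 counts in nmr-2(ok3324) and 20 in WT the depth-scaled ratio was 0.713 (95% exact interval 0.333 to 1.48), so a difference was not detectable at this depth. Counting error alone is covered by such intervals.

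ND3 and ND6 had fold changes opposite to the rest. ND3, a small subunit of complex I, had 118, 97.4 and 144 CPM in nmr-2(ok3324) and 121, 176 and 146 CPM in WT (log2 fold change -0.30, SE 0.15, edgeR adjusted p = 0.317). ND6 had 9.90, 5.23 and 8.41 CPM in nmr-2(ok3324) and 6.02, 17.8 and 9.62 CPM in WT (-0.50, SE 0.31). For both genes the lowest library was nmr-2(ok3324) replicate 2, the highest was WT replicate 2, and the groups overlapped. Without these libraries ND3 stood at -0.03 and ND6 at 0.23. ND3 and ND6 are, with ND4L, the 3 shortest mitochondrial genes, at 336 bases for ND3 and 437 for ND6.

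The makeup of the mitochondrial mRNA pool, which no scaling factor touches, gave shares without overlap between the genotypes for 7 of its 12 genes. Shares of the nuclear members' counts did so for 4 of 44. In CPM, which is another measure, 13.4% of all tested genes lay above WT without overlap and 11% below. Shares were not computed for all genes, so both counts are descriptions only. COX1 took 36.5 ± 0.34% of mitochondrial mRNA counts in nmr-2(ok3324) and 36.6 ± 0.34% in WT. ND5 took 6.46 ± 0.09% in nmr-2(ok3324) and 5.04 ± 0.42% in WT, and ND4 4.15 ± 0.09% and 3.77 ± 0.08%. ND3 took 1.94 ± 0.25% in nmr-2(ok3324) and 2.88 ± 0.28% in WT. The groups did not overlap for ND5 and ND4, which were above WT, or for COX3, ATP6, ND1, ND3 and ND4L, which were below. ND4L rests on 3 to 8 counts a library. Shares sum to a whole and are not independent of one another.

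ND3 and ND5 lie next to each other on the same strand, where their annotated ends share 1 base. Per length, ND5 stood at 0.698, 0.826 and 0.630 times ND3 in nmr-2(ok3324) and at 0.356, 0.352 and 0.414 times ND3 in WT. The means were 0.718 ± 0.100 and 0.374 ± 0.035, and the groups did not overlap. This pair was chosen after its values were seen, so the difference carries no test.

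No nuclear member passed by itself. Of the 41 tested nuclear genes 0 rose and 0 fell with edgeR, DESeq2 or limma-voom, beside 1.8% and 0.373% of all genes with edgeR, 2.32% and 0.799% with DESeq2 and 1.64% and 0.304% with limma-voom. At an unadjusted p under 0.05 there were 7 of the 41 lower and 0 higher, 17.1% beside 6.91% of all genes for lower values. Without the low-count filter 2 nuclear genes fell in edgeR, sdhd-1 (adjusted p = 0.0454) and cox-7C (adjusted p = 0.0318), beside 0.796% of all genes. Fold changes in the filtered set were below 0 for 40 of the 41, as for 46.6% of all tested genes, with a median of -0.24 and a range from -0.43 to 0.06. With library totals in place of TMM factors 8 of the 41 stood above 0 and the median was -0.07, beside the 0.20 of all genes under that scaling. The groups did not overlap for 8 of the 41, all with nmr-2(ok3324) below WT, 19.5% beside 11% of all tested genes.

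This shared direction was weaker without the libraries numbered 2. nmr-2(ok3324) replicate 2 was the lowest of the 6 libraries for 36 of the 41 nuclear genes, as for 26.2% of all tested genes, and WT replicate 2 was the highest for 34, as for 25.1%. Relative to each gene's mean over the libraries, the median nuclear level (log2) was 0.03, -0.36 and -0.01 in nmr-2(ok3324) replicates 1 to 3 and 0.06, 0.34 and -0.02 in WT replicates 1 to 3. For the mitochondrial genes the same medians were 0.07, 0.05 and 0.26 in nmr-2(ok3324) and -0.32, 0.00 and -0.03 in WT. Without both libraries numbered 2 the nuclear median fold change was -0.03, and 14 of the 41 genes stood above 0. These libraries held the extremes for most nuclear genes, so leaving both out had to move that median toward 0. Without nmr-2(ok3324) replicate 2 alone it was -0.137, and without WT replicate 2 alone -0.155. In each of these fits 3 of the 41 genes stood above 0. The per-library medians of the 2 genomes with all 6 libraries thus had their extremes in different libraries. ND3 and ND6 had theirs in the libraries numbered 2, like most nuclear genes.

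**Figure D3:**
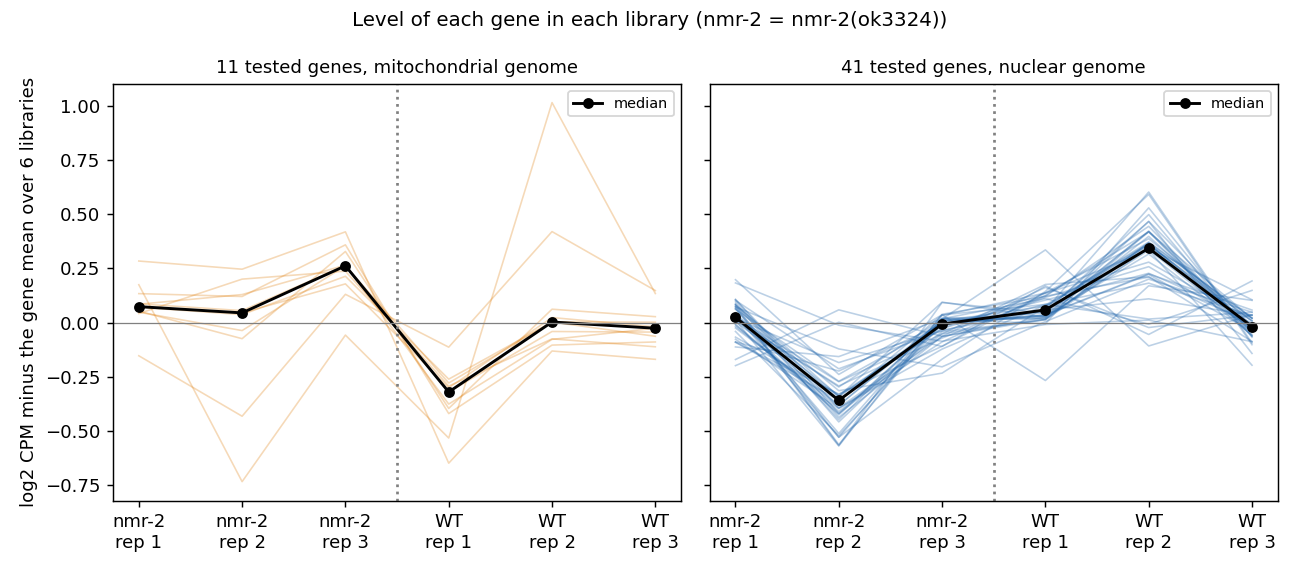
Log2 CPM of each tested gene minus its mean over the 6 libraries (thin lines), with the median over genes in black, for the mitochondrial genome on the left and the nuclear genome on the right. nmr-2(ok3324) libraries stand left of WT libraries in both panels, and lines only join the values of a gene. The nuclear median is lowest in nmr-2(ok3324) replicate 2 at -0.36 and highest in WT replicate 2 at 0.34, while the mitochondrial median is lowest in WT replicate 1 at -0.32.

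Fold changes of all genes drifted with their level, so the top decile of genes by level is given beside the members in it. That decile held 1314 genes with a median log2 fold change of -0.19, among them 30 nuclear members with a median of -0.26 and 10 mitochondrial members with a median of 0.24. Without both libraries numbered 2 the medians were -0.03 for the decile, -0.02 for these nuclear members and 0.35 for these mitochondrial members. The median of these mitochondrial members thus stood on the other side of 0 from that of the decile in both fits. ND3, at -0.30 with all libraries and -0.03 without both libraries numbered 2, did not. Whether level, library or genotype sets the nuclear values was not tested.

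**Figure D4:**
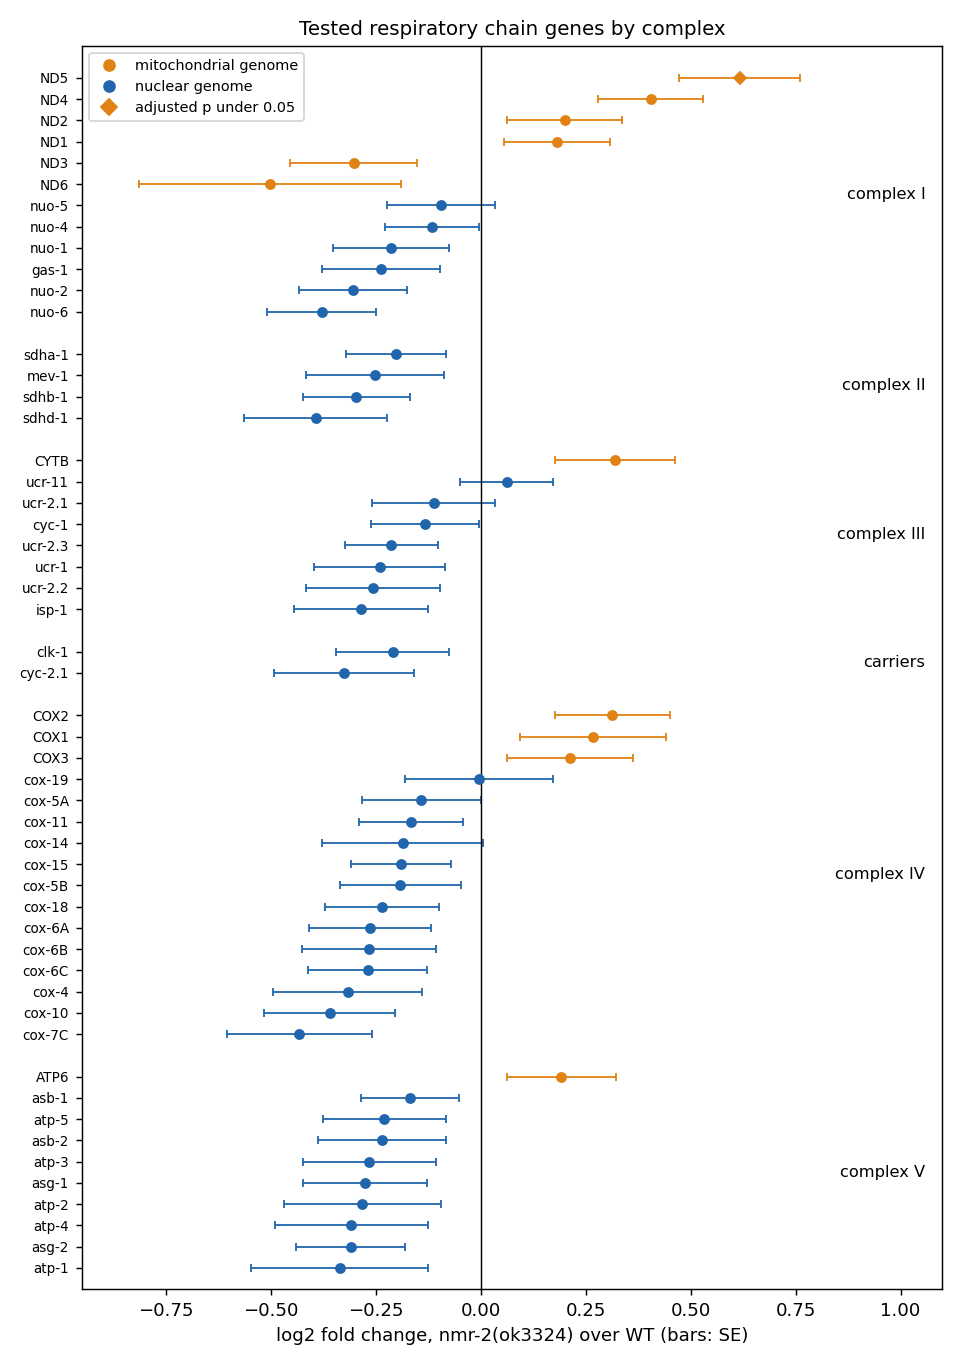
Log2 fold change of nmr-2(ok3324) over WT with SE for the 52 tested genes, ordered by complex, in orange for the mitochondrial and in blue for the nuclear genome. The diamond marks ND5 at 0.62, the gene with an adjusted p under 0.05, and 40 of the 41 nuclear genes lie below 0.

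In complex I all 6 tested nuclear subunits had fold changes below 0, with a median of -0.22, or -0.07 without both libraries numbered 2. nuo-6, an accessory subunit of the membrane arm, had 141, 113 and 139 CPM in nmr-2(ok3324) and 162, 198 and 150 CPM in WT, with no overlap (log2 fold change -0.38, SE 0.13, edgeR adjusted p = 0.164, the smallest of the nuclear members). nuo-2, a core subunit of the peripheral arm, had 139, 105 and 136 CPM in nmr-2(ok3324) and 141, 177 and 150 CPM in WT (-0.30, SE 0.13). gas-1, a core subunit near the ubiquinone site whose mutants are sensitive to volatile anaesthetics, had 153, 106 and 137 CPM in nmr-2(ok3324) and 144, 183 and 141 CPM in WT. Its groups overlapped, and its fold change of -0.24 became 0.03 without both libraries numbered 2. nuo-1, which binds NADH, had the highest nuclear level per length of this complex at 252 CPM per kb in nmr-2(ok3324) and 292 in WT.

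Complex II is nuclear throughout, and its 4 genes had a median of -0.27. sdhb-1, the iron-sulphur subunit, had 165, 137 and 177 CPM in nmr-2(ok3324) and 186, 225 and 177 CPM in WT, where the nearest libraries of the genotypes differed by less than 1 CPM (log2 fold change -0.30, SE 0.13). sdhd-1, a membrane anchor, had 114.7, 82.2 and 118 CPM in nmr-2(ok3324) and 123, 179 and 111 CPM in WT (-0.39, SE 0.17), with overlap. The flavoprotein gene sdha-1 (-0.20, SE 0.12) and mev-1, the other anchor, known for mutants sensitive to oxygen (-0.25, SE 0.16), overlapped as well. The 4 edgeR adjusted p-values lay between 0.259 and 0.423, and without both libraries numbered 2 the median was -0.04.

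In complex III the 7 nuclear genes had a median of -0.21, which turned to 0.01 without both libraries numbered 2, with 4 of the 7 above 0. isp-1, the Rieske iron-sulphur protein known for a long-lived mutant, had 449, 338 and 454 CPM in nmr-2(ok3324) and 463, 606 and 441 CPM in WT (log2 fold change -0.28, SE 0.16). Core protein 2 is encoded by 3 related genes. ucr-2.3 had 167, 152 and 177 CPM in nmr-2(ok3324) and 182, 208 and 185 CPM in WT, without overlap (-0.21, SE 0.11, edgeR adjusted p = 0.33). ucr-2.1 and ucr-2.2 overlapped between the groups, at -0.11 and -0.26, and both stood above 0 without both libraries numbered 2, at 0.17 and 0.08. Per length, ucr-2.2 was 0.457 ± 0.065 times ucr-2.3 in nmr-2(ok3324) and 0.471 ± 0.072 times in WT. ucr-11 was the one nuclear member above 0, at 0.06 (SE 0.11), chosen for naming after its values were seen.

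Grouped under the mobile carriers were cyc-2.1, which encodes a carrier, and clk-1, which encodes an enzyme of ubiquinone synthesis. Both lay below 0, with a median of -0.27, or -0.19 without both libraries numbered 2. cyc-2.1, cytochrome c, had 660, 509 and 639 CPM in nmr-2(ok3324) and 680, 924 and 660 CPM in WT (log2 fold change -0.32, SE 0.17). The closest libraries of the genotypes differed by less than 1 CPM and overlapped. clk-1, which makes a late step of ubiquinone synthesis and is known for slow development and long life in mutants, had 14.6, 16.8 and 15.6 CPM in nmr-2(ok3324) and 18.9, 16.2 and 19.2 CPM in WT (-0.21, SE 0.13).

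Complex IV had 7 nuclear subunits with a median of -0.27 and 6 tested assembly factors with a median of -0.19. cox-7C, a small subunit, had 201, 133 and 171 CPM in nmr-2(ok3324) and 213, 290 and 179 CPM in WT, with overlap (log2 fold change -0.43, SE 0.17, edgeR adjusted p = 0.227). cox-6C (-0.27, SE 0.14) and cox-6B, the subunit with the highest level per length of the 7 (659 CPM per kb in nmr-2(ok3324) and 793 in WT; -0.27, SE 0.16), overlapped too. Without both libraries numbered 2 the subunits had a median of 0.02 and the assembly factors one of -0.08. cox-10, needed to make the haem A of this complex, had 11.7, 9.93 and 11.6 CPM in nmr-2(ok3324) and 13.8, 16.4 and 12.6 CPM in WT, without overlap (-0.36, SE 0.16, edgeR adjusted p = 0.257).

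Complex V held the most abundant nuclear members, and all 9 lay below 0 with a median of -0.27. Without both libraries numbered 2 that median was -0.016. atp-2, the catalytic beta subunit, had 2882, 2396 and 2968 CPM in nmr-2(ok3324) and 3318, 3664 and 3039 CPM in WT, without overlap (log2 fold change -0.28, SE 0.19). asg-2 and asg-1 encode subunit g. asg-2 had 121, 91.8 and 97.2 CPM in nmr-2(ok3324) and 120, 148 and 116 CPM in WT (-0.31, SE 0.13), and asg-1 had 180, 122 and 179 CPM in nmr-2(ok3324) and 192, 221 and 170 CPM in WT (-0.27, SE 0.15). atp-4, a stalk subunit, had -0.31 (SE 0.18), and 0.08 without both libraries numbered 2.

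The subunit b genes asb-1, described as the germline form in C. elegans, and asb-2 were about equally abundant. asb-1 had 277, 269 and 303 CPM in nmr-2(ok3324) and 324, 298 and 332 CPM in WT (log2 fold change -0.17, SE 0.12). asb-2 had 313, 220 and 304 CPM in nmr-2(ok3324) and 304, 387 and 295 CPM in WT (-0.23, SE 0.15). Per length asb-1 stood at 1.02, 1.41 and 1.15 times asb-2 in nmr-2(ok3324) and at 1.23, 0.887 and 1.3 times in WT, so the groups overlapped. asg-1 stood at 1.62 ± 0.27 times asg-2 in nmr-2(ok3324) and 1.59 ± 0.07 times in WT.

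The most abundant gene per length of each genome gives the contrast in a pair of transcripts. COX1 stood at 0.908, 1.07 and 0.997 times atp-2 per length in nmr-2(ok3324), and at 0.594, 0.653 and 0.786 times in WT. The groups did not overlap, with means of 0.991 ± 0.081 and 0.678 ± 0.098. Levels of cyc-2.1 (1097 CPM per kb in nmr-2(ok3324), 1374 in WT) and atp-1 (1136 and 1433) came next among nuclear members, and cox-10 was lowest of those tested (7.06 and 9.06).

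3 nuclear members fell under the low-count filter. nuo-3, a complex I subunit, had 0 counts in nmr-2(ok3324) and 1, 0 and 4 in WT. cox-16 had 5, 4 and 1 counts in nmr-2(ok3324) and 2, 2 and 6 in WT, and cox-17, a copper chaperone, had 7, 10 and 2 counts in nmr-2(ok3324) and 4, 11 and 8 in WT. In the WBcel235 annotation 72.6% of the exon bases of nuo-3 and 61.6% of those of cox-16 also belong to another gene on the same strand. For cox-14, which was tested, the share was 75.7%. Reads in bases shared by genes can be left uncounted, and the part of this in the counts was not tested. The other nuclear members share at most 6.54% with any gene.

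Cell type markers are given as a measure of tissue makeup. The 8 germline markers summed to 2750 to 3380 CPM in nmr-2(ok3324) and 3460 to 3890 CPM in WT, and the 7 oocyte markers to 2820 to 3780 and 3940 to 4770 CPM. Both sums, like those of the intestine and neuron markers, were lowest in nmr-2(ok3324) replicate 2 and highest in WT replicate 2, as were most nuclear members, and their part in those values was not tested. The 7 body wall muscle markers summed to 7150 to 8650 CPM in nmr-2(ok3324) and 6900 to 7540 CPM in WT, with overlap. The 5 pharyngeal muscle markers summed to 112 to 132 and 88.5 to 101 CPM, without overlap. Intestine (2730 to 4030 and 3440 to 5070 CPM), neuron (198 to 229 and 210 to 238 CPM), sperm (153 to 188 and 136 to 196 CPM) and epidermis markers (17.7 to 24.3 and 14.2 to 18.1 CPM) overlapped too. None of the 8 lists had a marker at 0 counts in all libraries. Of the 7 intestine markers 1 passed, the protease gene cpr-1, which fell (log2 fold change -0.70, SE 0.14, edgeR adjusted p = 0.0124). Among all tested genes 0.373% fell. The median of the intestine markers was -0.19, and no marker of another list passed. cpr-1 was named after its values were seen.

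Lists of further mitochondrial genes held 0 genes past the edgeR threshold with all 6 libraries. Without both libraries numbered 2, 6 of them passed with edgeR, named here after their values were seen. The genes hsp-60 (log2 fold change -0.30, adjusted p = 0.0022), mrpl-50 (-0.43, 0.00591), sqrd-1 (-1.74, 0.0109), idhg-1 (-0.26, 0.0259) and hsp-6 (-0.23, 0.0389) fell in that fit, and ant-1.4 (0.66, 0.0256) rose, where 1.4% of all genes fell and 2.61% rose. Levels of sqrd-1 were low, at 0.851, 1.79 and 0.57 CPM in nmr-2(ok3324) and 2.45, 1.70 and 2.37 CPM in WT. In the omitted libraries numbered 2, sqrd-1 was higher in nmr-2(ok3324) than in WT. Among 38 further subunits, assembly factors and carriers of the respiratory chain, 37 were tested, 0 passed, 33 lay below 0 and the median was -0.20, or -0.03 without both libraries numbered 2. The smallest p belonged to ant-1.4, an adenine nucleotide carrier, at 12.5 ± 2.3 CPM in nmr-2(ok3324) and 8.92 ± 1.03 CPM in WT (log2 fold change 0.49, SE 0.17, edgeR adjusted p = 0.178). It was followed by T02H6.11 (-0.32, SE 0.13) and nduf-2.2 (-0.24, SE 0.11).

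The 70 genes of the mitochondrial ribosome, which translates the mitochondrial mRNAs, were all tested. With edgeR 0 passed, with DESeq2 2 (mrpl-18, adjusted p = 0.0345, and mrps-7, adjusted p = 0.0337) and with limma-voom 0. With DESeq2 0.799% of all genes fell. At an unadjusted p under 0.05 there were 20 lower and 0 higher, where 6.91% of all genes were lower. 67 of 70 lay below 0, beside 46.6% of all genes, with a median of -0.18, and -0.11 without both libraries numbered 2. The groups did not overlap for 21 of 70, all with nmr-2(ok3324) below WT, 30.0% beside 11% of all tested genes. mrpl-18 had 40.0, 32.6 and 38.01 CPM in nmr-2(ok3324) and 51.2, 52.2 and 46.3 CPM in WT (log2 fold change -0.44, SE 0.11, edgeR adjusted p = 0.0642). mrps-7 had 26.5, 27.4 and 26.99 CPM in nmr-2(ok3324) and 36.0, 38.5 and 33.3 CPM in WT (-0.41, SE 0.11), and mrpl-34 lay at -0.39 (SE 0.11).

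Of 7 genes for transcription and maintenance of the mitochondrial genome, 0 passed and the median was 0.09, or -0.07 without both libraries numbered 2. rpom-1, the mitochondrial RNA polymerase, had 29.8, 34.5 and 31.8 CPM in nmr-2(ok3324) and 28.1, 23.2 and 27.04 CPM in WT, without overlap (log2 fold change 0.29, SE 0.12, edgeR adjusted p = 0.238). mtss-1, the single-stranded DNA binding protein of the organelle, had 71.1, 55.0 and 72.9 CPM in nmr-2(ok3324) and 79.6, 86.5 and 82.5 CPM in WT (-0.32, SE 0.12), and tfbm-1 lay at -0.21 (SE 0.14). hmg-5, which packages mitochondrial DNA, was named after its values were seen and had 31.2 ± 4.2 CPM in nmr-2(ok3324) and 29.5 ± 2.6 CPM in WT.

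The 19 genes of the tricarboxylic acid cycle and pyruvate dehydrogenase all lay below 0 (median -0.21, and -0.10 without both libraries numbered 2) and 0 passed. pdhb-1 (-0.37, SE 0.13), the fumarase gene fum-1 (-0.39, SE 0.16) and idhg-1 (-0.25, SE 0.11) had the smallest p. The 7 further ubiquinone synthesis genes had a median of -0.13 (-0.08 without both libraries numbered 2), with coq-5 (-0.21), coq-3 (-0.19) and coq-1 (0.16) first by p. The 7 antioxidant genes had a median of -0.11 (-0.083 without both libraries numbered 2), with sqrd-1 (-1.0, SE 0.39), prdx-3 (-0.25) and sod-2 (-0.21) first. Adjusted p-values by edgeR were 0.183 or more in these 3 lists.

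Of 19 genes of the mitochondrial stress response and protein import, 0 passed with edgeR and 1 with DESeq2 (hsp-60, adjusted p = 0.0264). The median was -0.09, or -0.011 without both libraries numbered 2. hsp-60, a chaperone that is induced by mitochondrial stress in C. elegans, had 680, 655 and 692 CPM in nmr-2(ok3324) and 849, 876 and 837 CPM in WT. Its groups were far apart for their spread, yet it did not pass (log2 fold change -0.34, SE 0.14, edgeR adjusted p = 0.234). dnj-10 (0.44, SE 0.14) and tomm-20 (-0.35, SE 0.16) completed the 3 smallest p. The chaperone gene hsp-6, named after its values were seen, had 567 ± 38 CPM in nmr-2(ok3324) and 637 ± 35 CPM in WT (-0.17, SE 0.13). With library totals, under which the median of all genes was 0.20, the medians of 3 lists turned to above 0, at 0.055 for ubiquinone synthesis, 0.056 for the antioxidant genes and 0.085 for the stress response.

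**Figure D5:**
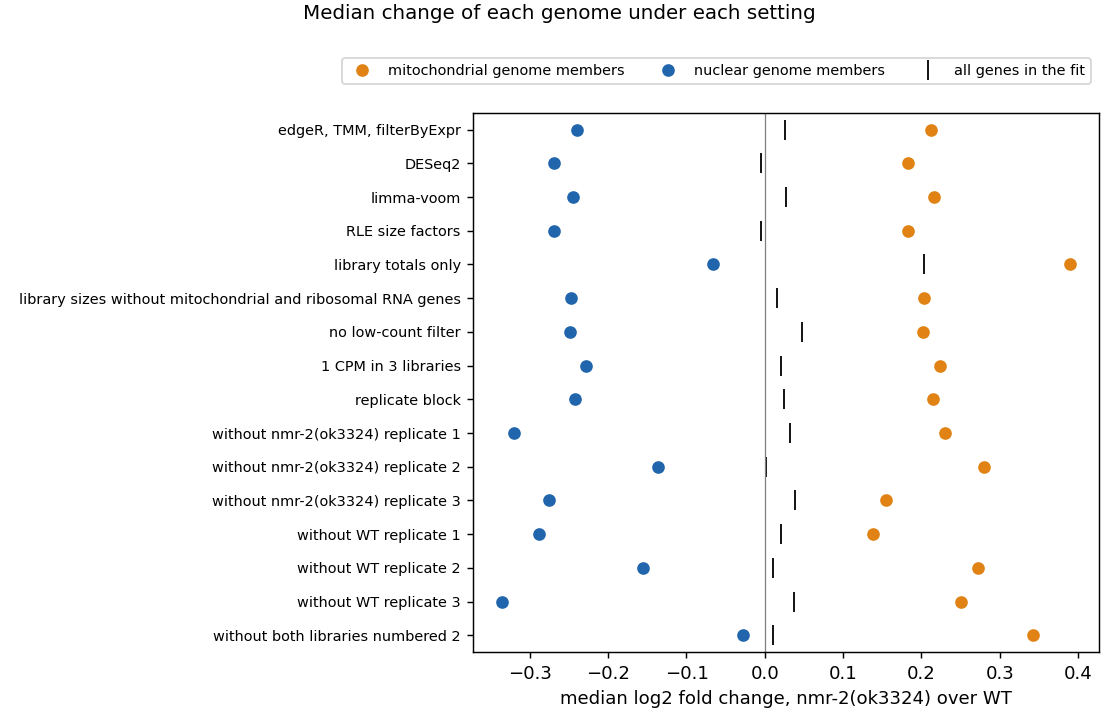
Median log2 fold change, nmr-2(ok3324) over WT, of the mitochondrial (orange) and nuclear (blue) members and of all genes (black bars) under each setting. The mitochondrial median stays between 0.14 and 0.39 and above that of all genes, and the nuclear median between -0.34 and -0.03 and below it.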

How the data were processed

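RNA-seq reads per gene were measured in 3 nmr-2(ok3324) and 3 WT libraries. The authors deposited whole-number counts per gene for each library without normalization. Per the submitters' processing notes the tools include HTSeq and DESeq2, without versions. Aligner, build, annotation and strand setting: not given in the sources used here. Therefore it is unknown whether genes that overlap on opposite strands were told apart, and how reads with several matches were treated. Symbols came from a name table (44059 of 46911 identifiers) and coordinates and exon lengths from the WBcel235 annotation of Ensembl release 115. For 9 mitochondrial genes, symbols came from RefSeq genes at the same positions of WBcel235.

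The deposited counts were tested with edgeR 4.0.16 (R 4.3.3): filterByExpr by genotype (13137 genes kept), TMM factors, glmQLFit with robust estimation and glmQLFTest, Benjamini-Hochberg adjustment over all tested genes, threshold 0.05. The SE of a log2 fold change equals its size over the square root of F. TMM factors enter CPM, and log2 CPM has a prior count of 2. Libraries of a genotype differed beyond sampling noise (chi-square per degree of freedom 9.59 to 42.0), so none was merged as a repeat of another. The step was tested on simulated data.

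Members and lists were chosen with earlier results of these data known. Genes named are the mitochondrial members, members past the threshold, the 3 smallest p and the highest level per length of each complex, paralogues, and 3 genes a list. Alternatives were DESeq2 1.42.0, limma-voom (limma 3.58.1), RLE factors, library totals, library sizes without mitochondrial and ribosomal RNA genes, no filter, 1 CPM in 3 libraries, a replicate block, and leaving out each library or both numbered 2. Figures used matplotlib 3.10.9. No sequences are shown.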

Additional observations from a re-analysis of the deposited data

How the results depend on the processing

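The difference between nmr-2(ok3324) and WT in the log2 ratio of mitochondrial to nuclear counts kept its sign under each of 8 alternatives. It lay between 0.40 and 0.66. The number of mitochondrial genes called higher was 0 with RLE factors and with the replicate block, 5 with library totals and 5 without both libraries numbered 2, and 0 to 1 when a single library was left out. Nuclear genes called lower numbered 2 without the low-count filter (sdhd-1, -0.40, and cox-7C, -0.43), where 0.796% of all genes fell, and 0 otherwise. The mitochondrial median was 0.39 with library totals, and the nuclear median -0.028 without both libraries numbered 2. Of the 41 tested nuclear genes, 1 stood above 0 in the main fit, 8 with library totals and 14 without both. Signs were followed gene by gene for only part of the members. Among those, the sign turned for ucr-2.1 with library totals (0.063) and without both (0.17). Single libraries left out put ucr-2.1 between -0.241 and 0.031 (0.013 without nmr-2(ok3324) replicate 2, 0.031 without WT replicate 2). Among the same members, without both it turned also for ND6 (0.23), gas-1 (0.027), ucr-2.2 (0.083), cox-6B (0.024), asb-2 (0.045) and atp-4 (0.083). The cause was not tested. Where replicate numbers were used as a block, ND5 had an adjusted p of 0.219 and 1.08% of all genes were called, against 2.17% without it. That share was 3.06% without the low-count filter, 4.01% without both libraries numbered 2 and 1.41% to 1.92% with a single library left out. The numbers are in the labels only, and same-numbered libraries did not deviate together (correlations 0.001, -0.278 and -0.102), so they were not taken as pairs. With a library left out, p-values rest on 3 residual degrees of freedom and an assumed common spread. Without both libraries numbered 2 they rest on 2 libraries per genotype. Depth limits ND4L, nuo-3, cox-16 and cox-17.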

Other observations

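Outside the protein-coding genes, the mitochondrial genome gave little signal in these tables. Its 2 ribosomal RNA genes summed to 529, 452 and 637 counts in nmr-2(ok3324) and 299, 530 and 530 counts in WT, with overlap, and its 22 tRNA genes are listed at 0 in all 6 libraries. The 12 protein-coding genes, by contrast, held 140617 to 166885 counts in nmr-2(ok3324) and 103579 to 133857 in WT.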
